A study of Mus musculus with 5 samples.

Results

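Lungs of Cldn4 knockout mice after injurious ventilation, taken from animals whose injury was similar to that of wild type, were compared with lungs of knockout mice that were not ventilated. The comparison covered 12575 of the 21590 genes in the deposited tables. A gene entered when its mean log2 level, in CPM (read counts scaled to a common library size), was at least 1 in each of the 3 tables that link the groups, when it was not on the X or Y chromosome, and when no deposited fold change was exactly 0. No gene was selected for the size of its response.

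Whole lungs were profiled by RNA sequencing in 5 groups of mice on a mixed 129S6, C57BL/6, BALB/c background, and 4 of the groups are used here. KO_noVILI lungs came from Cldn4 knockout mice without ventilation, and KO_VILIlow lungs from Cldn4 knockout mice after 2 h at 40 cmH2O, a setting used to cause ventilator-induced lung injury (VILI). WT_noVILI and WT_VILI are the matching wild type groups without ventilation and after the same exposure. The design text gives duplicates, hence 2 libraries per group, but the tables hold 0 columns of values per library, so levels are group levels without a spread between replicates, and the depth per library is unknown. The study divided its ventilated knockout animals by the injury they showed, so KO_VILIlow is the less injured portion of the ventilated knockouts rather than all of them, and the labels give neither age nor sex.

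Claudin-4 is a tight junction protein of epithelial cells that limits leak between them, and in the lung it is known as a gene that alveolar epithelium switches on during injury. Overstretching the lung loads epithelium, endothelium and matrix mechanically, which is known to activate MAP kinase, SRF and YAP signalling, immediate early transcription factors, NF-kB cytokines and neutrophil entry. Interferon-inducible genes and lymphocyte genes mark the immune tone of the resting lung, and metallothioneins and NRF2 targets mark metal and oxidant stress.

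No deposited table compares these groups directly. The log2 fold change of KO_VILIlow against KO_noVILI was obtained by adding the authors' deposited fold changes of ventilated wild type over unventilated wild type and of KO_VILIlow over ventilated wild type, and subtracting that of KO_noVILI over unventilated wild type. Each derived value carries an approximate standard error, written after ±, made from the 3 deposited p-values. A gene is said to be called, or to have risen or fallen, at an adjusted p of 0.05 in the approximate test (Benjamini-Hochberg over the 12575 genes). The median standard error was 0.34 log2, and the smallest called change was 0.85 log2. Levels in CPM are group levels rebuilt from the deposited fold change and mean abundance, and since they are not divided by gene length they are compared between groups and not between genes.

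The targeted gene was checked first. Cldn4 stood at 0.14 CPM in KO_noVILI and 0.0212 CPM in KO_VILIlow, near the floor of the estimates, against 8.98 CPM in WT_noVILI and 139.7 CPM in WT_VILI. Both knockout levels are too low for a fold change of this gene, although the test counts Cldn4 among the lower genes. The low-injury table was read as a comparison with WT_VILI: after the median offset between the tables was removed (-0.09 log2 against either group), its reference level lay a median of 0.0622 log2 from that group and 0.232 log2 from WT_noVILI, the group the labels list under each table. Within 0.1 log2 of WT_VILI lay 79.5 percent of genes. The match was looser than for the WT_noVILI level of the 2 tables that share it, at 98.6 percent and a median of 0.0074 log2. Were the labels' reading right, the response would equal what is given here as the difference between the responses. Sex-linked genes bear out WT_VILI instead. KO_VILIlow lay -0.09 log2 from the low-injury reference in Ddx3y, at 107 CPM, where WT_noVILI stood at 0.0984 and WT_VILI at 115 CPM. In Xist it lay -0.48 log2 from that reference, at 4.08 CPM, where WT_noVILI stood at 890 and WT_VILI at 6.13 CPM. The female-specific Xist stood at 505 CPM in KO_noVILI and 4.08 CPM in KO_VILIlow, and the Y-linked Ddx3y at 0.421 and 107 CPM, with the same pattern in wild type (Xist 890 and 6.13 CPM). In both genotypes the ventilated libraries thus carry male and the unventilated ones female transcripts, so that sex and ventilation cannot be told apart in any gene below. Defining lung markers were present in both knockout groups, with the surfactant gene Sftpb at 3642 and 3286 CPM, Ager of alveolar type 1 cells at 1599.9 and 1797 CPM and Cdh5 of endothelium at 1179 and 1172 CPM.

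After ventilation 453 genes were called, 3.6 percent of those tested, with 289 higher (2.3 percent) and 164 lower (1.3 percent). Among genes reaching 5 CPM, the largest rises after Bpifa1 were in Mt2, Xirp1, Apold1, Nptx1, Has1, Atf3, Thbs1, Areg and Slc7a11, between 3.80 and 5.03 log2. The largest falls were in Ccl5, Adrb3, Gbp5, Rprml, Meox2, Gzma, Lrat, Lbh, Iigp1 and Tnfsf10, between -2.48 and -3.00 log2. Bpifa1, a secreted defence protein of the conducting airways, went from 0.417 to 37.8 CPM, and since the first level is close to the floor its log2 fold change of 6.71 ± 1.49 is a fitted value and no bound. The median over all genes tested was -0.03 log2. For the gene lists below, 2.3 percent higher and 1.3 percent lower are the shares over all genes. Lists and members were chosen with earlier results of these data known, so their shares describe the lists and test nothing.

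**Figure D1:**
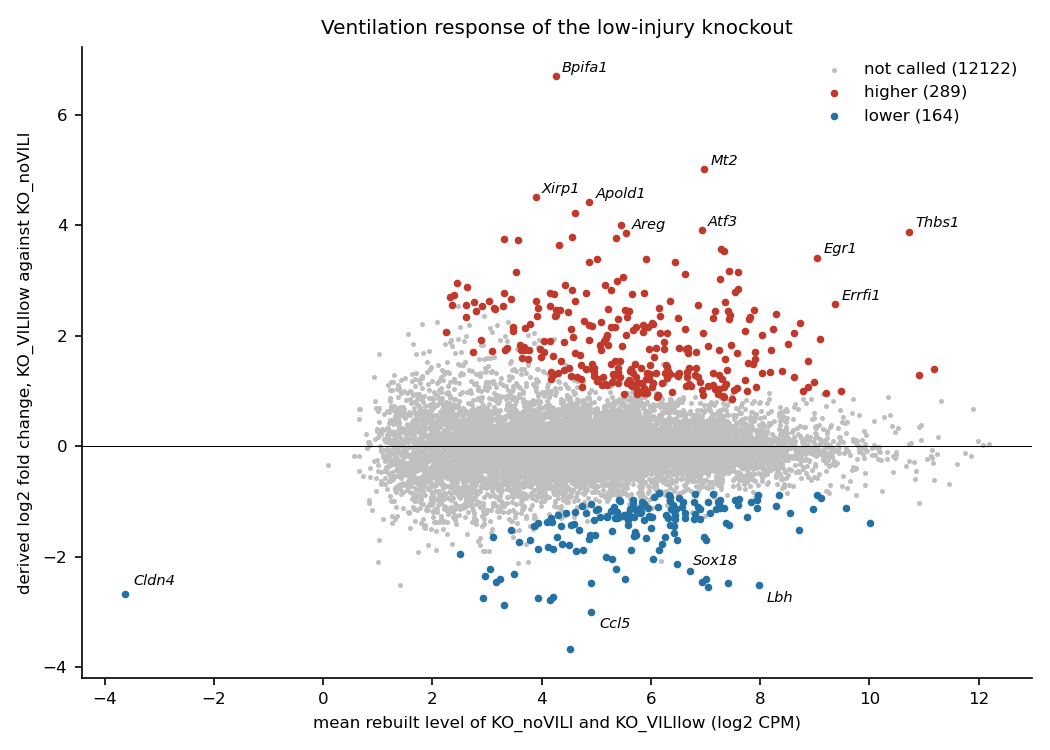
Each point is 1 of the 12575 genes tested: the x axis gives the log2 of the mean rebuilt level of KO_noVILI and KO_VILIlow in CPM, and the y axis the derived log2 fold change of KO_VILIlow against KO_noVILI. Red points are the 289 genes called higher and blue points the 164 called lower, with Mt2 and Thbs1 far above 0 and Cldn4 at the left end, at the floor of the estimates.

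Immediate early transcription factors, genes that cells switch on within minutes of a stimulus without new protein synthesis, formed the most widely raised list. Of 41 listed, 38 were tested, 26 rose (68.4 percent, against 2.3 percent of all genes) and 2 fell, with a median of 1.27 log2. Atf3, a stress-induced repressor and activator of the ATF family, went from 14.9 to 229 CPM (log2 fold change 3.92 ± 0.41, adjusted p = 1.71e-18). Maff, a small MAF protein, went from 33.8 to 312 CPM (3.17 ± 0.28, adjusted p = 7.03e-26). Fosb, an AP-1 subunit, went from 10.5 to 109.6 CPM (3.39 ± 0.38). Csrnp1, a nuclear protein, went from 33.3 to 199 CPM (2.56 ± 0.32). These 4 are the members with the strongest test statistic, and in each the level was lowest in KO_noVILI and highest in KO_VILIlow of the 4 groups. In the authors' deposited test none of the 4 passed for KO_VILIlow against WT_VILI, with log2 fold changes between 0.05 (Atf3) and 0.46 (Maff). For KO_noVILI against WT_noVILI only Fosb passed (-1.44, adjusted p = 8.19e-05).

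The other members named in this paragraph were chosen after their values were seen. The zinc finger factor Egr1 went from 86.4 to 973 CPM (log2 fold change 3.42 ± 0.54, adjusted p = 8.37e-08), with Egr2 at 3.07 and Egr3 at 2.92. Of the AP-1 subunits, Fos (from 44.5 to 283 CPM), Junb (from 72.9 to 374 CPM) and Fosl2 (from 108 to 498 CPM) rose by 2.62, 2.31 and 2.13 log2, and Jun stood at 387 and 519 CPM without passing the test (adjusted p = 0.914). The orphan nuclear receptor Nr4a1 went from 68.9 to 403 CPM (2.47 ± 0.48, adjusted p = 4.29e-05), and the growth regulator Myc from 11.4 to 49.4 CPM (2.17). The 2 members that fell were Klf2, an endothelial factor kept on by smooth blood flow (from 198 to 59.7 CPM, -1.70 ± 0.36), and Id1, an inhibitor of basic helix-loop-helix factors (from 105 to 55.3 CPM, -0.89 ± 0.28, adjusted p = 0.0486). Nr4a3, left out of the test because a deposited fold change was exactly 0, stood at 7.14 and 69.0 CPM, and Arc, under the abundance minimum, at 2.20 and 23.9 CPM.

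Many immediate early genes are known targets of SRF, a factor that binds the CArG box. RefSeq promoters from 250 bases before to 50 bases after the start were given for 9903 of the genes tested (build GRCm38.p6), and a CArG box on either strand was found in 1.3 percent of them. It was found in 9 of the 221 promoters of genes called higher (4.07 percent) and in 0 of the 118 promoters of genes called lower. By list, 2 of 28 immediate early promoters held it (7.14 percent), 3 of 19 cardiac muscle promoters (15.8 percent) and 3 of 17 of the YAP and matricellular list (17.6 percent). It was also in 2 of 19 alveolar type 1 promoters (10.5 percent), a list where no gene was called, and in 2 of 16 club and goblet promoters (12.5 percent). The 9 are Actc1, Actg1, Fhl2, Lmcd1, Myl3, Myl7, Myom1, Srf and Zfp36, and several of them are muscle genes. The part of muscle tissue in the share among genes called higher was not tested. Of these, Fhl2, Lmcd1, Srf, Zfp36, Actg1, Myl3, Myl7 and Myom1 are named after their values were seen. Srf itself went from 87.3 to 195 CPM (log2 fold change 1.11), and Zfp36, which promotes decay of cytokine messenger RNA, went from 94.7 to 530.2 CPM (2.39 ± 0.31). Their promoters are shown because both genes rose and hold the box close to the start, with CArG boxes in capitals, for Srf at chr17:46556113-46556412 and Zfp36 at chr7:28379179-28379478, both on the minus strand.

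Srf: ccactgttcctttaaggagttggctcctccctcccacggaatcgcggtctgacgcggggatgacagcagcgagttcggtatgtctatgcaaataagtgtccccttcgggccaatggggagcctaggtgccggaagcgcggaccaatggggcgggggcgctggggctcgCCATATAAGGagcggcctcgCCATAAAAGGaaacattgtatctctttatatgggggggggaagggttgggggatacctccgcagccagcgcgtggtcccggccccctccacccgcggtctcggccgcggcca
Zfp36: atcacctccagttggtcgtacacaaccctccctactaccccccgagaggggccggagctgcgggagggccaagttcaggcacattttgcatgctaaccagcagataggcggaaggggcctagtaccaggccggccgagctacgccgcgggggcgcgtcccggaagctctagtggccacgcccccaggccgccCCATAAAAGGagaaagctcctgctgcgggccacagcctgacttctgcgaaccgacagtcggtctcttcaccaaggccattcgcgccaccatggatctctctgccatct

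The box lies 82 and 62 bases before the start in Srf, and 58 bases before it in Zfp36. A match to these letters is a description of the sequence and does not show that SRF was bound.

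Feedback inhibitors of MAP kinases rose in 5 of 17 cases (29.4 percent, against 2.3 percent of all genes) and none fell (median 0.76 log2). Errfi1, which restrains the EGF receptor, went from 184 to 1148 CPM (log2 fold change 2.57 ± 0.28, adjusted p = 1.51e-16). The MAP kinase phosphatases Dusp1, Dusp8 and Dusp16 rose by 1.55, 1.26 and 0.94 log2, Dusp1 from 232 to 706 CPM. The fifth, outside the naming rule, is the ERK pathway inhibitor Spry4, at 1.08 log2. Among the EGF receptor and its ligands 3 of 12 rose and none fell. The ligand Areg went from 6.08 to 86.8 CPM (3.86 ± 0.50, adjusted p = 3.77e-12), the ligand Hbegf from 36.9 to 160.4 CPM (2.13), and the receptor Egfr itself from 23.2 to 55.9 CPM (1.32). The ligand Ereg was under the abundance minimum, at 0.671 and 7.12 CPM.

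The cyclic AMP response element, TGACGTCA, was found in 3.13 percent of the 9903 promoters, in 14 of the 221 of genes called higher (6.33 percent) and in 0 of the 118 of genes called lower. The 14 include Areg, Dusp1, Dusp8, Has1, Btg2 and Ppp1r15a. By list, the element was in 2 of 15 promoters of MAP kinase feedback inhibitors (13.3 percent) and 1 of 28 immediate early promoters (3.57 percent). It was also in 4 of 33 ribosomal protein promoters (12.1 percent), a list where no gene was called. The Areg promoter (chr5:91139349-91139648, plus strand) is shown because Areg is among the largest rises and holds the whole element, in capitals, 61 bases before the start.

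Areg: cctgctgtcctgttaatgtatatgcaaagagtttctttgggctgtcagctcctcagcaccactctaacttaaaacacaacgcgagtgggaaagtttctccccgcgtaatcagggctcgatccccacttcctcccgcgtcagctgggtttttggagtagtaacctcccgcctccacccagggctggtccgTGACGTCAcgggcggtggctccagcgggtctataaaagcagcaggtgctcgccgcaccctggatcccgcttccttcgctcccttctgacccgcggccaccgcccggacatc

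In the list of YAP targets and matricellular genes, 11 of 28 rose (39.3 percent, against 2.3 percent of all genes) and none fell, with a median of 0.54 log2. Thbs1, thrombospondin-1, which activates latent TGF-beta, went from 206 to 3189 CPM (log2 fold change 3.89 ± 0.39, adjusted p = 1.64e-19). Ptgs2, the inducible prostaglandin synthase, went from 23.1 to 288 CPM (3.58 ± 0.33), and it was the 1 called gene of 22 in the prostaglandin pathway. Lox, which crosslinks collagen and elastin, went from 45.7 to 326 CPM (2.79 ± 0.30). Of the classical YAP targets, chosen here after their values were seen, Cyr61 went from 140.0 to 708 CPM (2.24 ± 0.37), Ctgf from 217 to 873 CPM (1.95 ± 0.31) and Ankrd1 from 21.3 to 94.1 CPM (2.19 ± 0.44). Ankrd1 is also a gene of heart muscle, and 13 of 21 cardiac muscle genes rose with a median of 1.95 log2, whose part in its rise was not tested.

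Coagulation and fibrinolysis genes rose in 5 of 20 cases (25 percent, against 2.3 percent of all genes) and none fell. Tissue factor, F3, which starts clotting, went from 36.6 to 350.3 CPM (log2 fold change 3.16 ± 0.32, adjusted p = 5.44e-19). The urokinase receptor Plaur and the plasminogen activator Plat rose by 1.41 and 1.25 log2, and F2rl1, a protease-activated receptor outside the naming rule, by 1.26. Matrix proteases and their inhibitors rose in 5 of 23 cases, led by the collagenase Mmp8 (from 3.11 to 36.6 CPM, 3.64 ± 0.77), which neutrophils carry, and by Adamts1 (from 152 to 581 CPM, 1.85 ± 0.33). Has1, a hyaluronan synthase, went from 5.23 to 82.0 CPM (4.01 ± 0.78, adjusted p = 3.64e-05). Of 33 fibroblast matrix genes 2 rose, Eln (1.13) and Pi16 (0.98), and 1 fell, the mesenchymal factor Tcf21 (from 175 to 35.3 CPM, -2.26 ± 0.35).

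In the purine and ion channel list the adenosine receptor Adora2b (from 17.4 to 43.1 CPM, log2 fold change 1.40) and the ATP receptor P2ry2 (from 15.6 to 34.7 CPM, 1.25) rose, and no other of the 22 members was called. The share higher was 9.09 percent, against 2.3 percent of all genes.

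Of the NF-kB subunits, inhibitors and feedback genes, 8 of 33 rose and none fell (median 0.39 log2). Socs3, the inhibitor of IL-6 family signalling, went from 46.9 to 338 CPM (log2 fold change 2.85 ± 0.31, adjusted p = 1.27e-16). Tnfaip3, which ends NF-kB signalling, went from 41.2 to 114 CPM (1.48), Nfkbiz from 27.9 to 71.9 CPM (1.39) and the cytokine inhibitor Cish from 37.6 to 86.7 CPM (1.23). The NF-kB motif GGNNTTTCC was found in 8 of 27 promoters of this list (29.6 percent), against 5.96 percent of all 9903. It was in 8.14 percent of promoters of genes called higher, in 8.47 percent of those called lower, and in 30.0 percent of the 10 promoters of the adhesion list, where no gene was called. Innate sensors rose in 3 of 23 cases: Trem1 (2.63), the lipopolysaccharide co-receptor Cd14 (2.07) and Tlr2 (1.25).

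Of 18 interleukin and TNF genes tested, 2 rose and 1 fell. Il1b, the inflammasome cytokine, went from 14.7 to 70.0 CPM (log2 fold change 2.31 ± 0.46, adjusted p = 4.76e-05), and Lif, of the IL-6 family, from 5.73 to 52.3 CPM (3.33 ± 0.46). Tnfsf10, the death ligand TRAIL, fell from 287 to 51.4 CPM (-2.48 ± 0.28). The list's median was -0.03 log2, and it turned positive, at 0.11, when genes of low abundance were kept. Several cytokines were under the abundance minimum and untested, and the following were chosen after their values were seen. Il6 stood at 0.405 CPM in KO_noVILI and 21.9 CPM in KO_VILIlow, Tnf at 1.39 and 12.6 CPM and Osm at 2.10 and 9.90 CPM. All 3 were higher in the ventilated group, with no test.

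Among CXC chemokines and receptors 1 of 14 rose and 1 fell: the neutrophil attractant Cxcl1 went from 4.99 to 25.4 CPM (log2 fold change 2.50 ± 0.66), and the homing chemokine Cxcl12 from 518 to 233 CPM (-1.20 ± 0.28). Of 6 CC and CX3C chemokines tested, the eosinophil attractant Ccl11 (2.48) and Ccl9 (1.32) rose, and Cx3cl1 (-1.20) and Ccl5 fell. Ccl5, made by T and NK cells, went from 53.8 to 6.27 CPM (-3.00 ± 0.74, adjusted p = 0.00305), the largest fall among genes named by the rule. Untested for low abundance, and chosen after their values were seen, Cxcl2 stood at 1.59 and 22.0 CPM, Ccl3 at 1.34 and 18.0 CPM and Ccl2 at 0.857 and 11.5 CPM in KO_noVILI and KO_VILIlow, while the interferon-gamma chemokine Cxcl9 stood at 4.45 and 0.648 CPM. Of cytokine receptors and decoys 2 of 26 rose, Tnfrsf12a (2.36) and Csf3r (1.89), and 2 fell, Ifngr2 (-0.98) and Lifr (-0.89). Each direction held 7.69 percent of that list, against 2.3 percent higher and 1.3 percent lower of all genes.

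Neutrophil markers rose in 7 of 17 cases (41.2 percent, against 2.3 percent of all genes) and none fell, with a median of 1.69 log2. The granule collagenase Mmp8, Trem1, the G-CSF receptor Csf3r and the calcium-binding alarmin S100a8 are the members with the strongest statistic. S100a8 went from 23.0 to 141 CPM (log2 fold change 2.62 ± 0.66, adjusted p = 0.00339), and Csf3r from 32.3 to 119 CPM (1.89 ± 0.39). The summed level of the whole neutrophil list was 698 CPM in KO_noVILI and 1449 CPM in KO_VILIlow, against 626 and 1036 CPM in the wild type groups. In whole lung, more cells of a type and more RNA per cell cannot be told apart, and neither can fewer cells and less RNA per cell. Alveolar macrophage and monocyte genes went both ways, with Nr4a1 and Fabp4 higher and the scavenger receptor Marco (from 27.8 to 7.08 CPM, -1.83) and the monocyte receptor Ccr2 (from 30.1 to 8.83 CPM, -1.65) lower among 31. Nr4a1 is also in the immediate early list, and Fabp4 in the list of fat, thymus and mesothelium genes. The macrophage and monocyte list's median of -0.03 log2 became positive when values were centred on the median of all genes or limited to abundant genes.

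Glucocorticoid-responsive genes rose in 17 of 29 cases and none fell, with a median of 1.07 log2. The largest changes in this list were in the metallothioneins, small proteins that bind zinc and copper. Mt2 went from 7.66 to 244 CPM (log2 fold change 5.03 ± 0.43, adjusted p = 4.51e-27) and Mt1 from 25.3 to 296 CPM (3.54 ± 0.37, adjusted p = 9.23e-19). No other of the 16 genes tested among metallothioneins and zinc transporters was called. Pdk4, which turns cells from glucose to fat oxidation, went from 15.8 to 158 CPM (3.34 ± 0.41), and Errfi1, given above, is also a member. The kinase Sgk1, which raises sodium transport, went from 127 to 461 CPM (1.74 ± 0.26).

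The letters TGCNCNC were searched on either strand as a loose form of the metal response element, so a match need not be that element. They occur in 59.7 percent of the 9903 promoters, in 60.6 percent of those of genes called higher and in 68.6 percent of those called lower. Only 37 of the 9903 (0.374 percent) hold 6 or more matches, as Mt2 does. The Mt2 promoter (chr8:94172368-94172667, plus strand) is shown for that number, with the matches in capitals.

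Mt2: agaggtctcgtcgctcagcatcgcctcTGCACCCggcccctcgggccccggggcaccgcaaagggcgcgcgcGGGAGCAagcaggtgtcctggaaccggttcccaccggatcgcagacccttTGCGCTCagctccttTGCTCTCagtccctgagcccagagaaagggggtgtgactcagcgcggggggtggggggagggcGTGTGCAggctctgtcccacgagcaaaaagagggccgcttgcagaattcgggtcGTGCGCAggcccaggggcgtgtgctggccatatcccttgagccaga

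Of the 6 matches 5 lie before the start and 1 after it. The matched letters describe the sequence and do not show that a factor was bound.

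NRF2 antioxidant genes rose in 7 of 39 cases and none fell, with a median of 0.18 log2. Srxn1, which repairs peroxiredoxins, went from 32.9 to 274 CPM (log2 fold change 3.03 ± 0.31, adjusted p = 2.67e-19), the cystine importer Slc7a11 from 3.28 to 43.7 CPM (3.80 ± 0.49), the thioredoxin reductase Txnrd1 from 109 to 372 CPM (1.70) and the growth inhibitor Osgin1 from 33.0 to 99.8 CPM (1.62). Of the p53 and growth arrest genes 6 of 24 rose, among them the cell cycle inhibitor Cdkn1a (from 52.1 to 290.5 CPM, 2.45 ± 0.31), Gadd45g (2.75), Plk3 (2.33) and Trp53inp1 (1.59). Hypoxia-inducible and glycolytic genes rose in 7 of 29 cases, led by hexokinase Hk2 (from 23.6 to 109 CPM, 2.22), the glucose transporter Slc2a1 (from 23.4 to 60.6 CPM, 1.41), the vasodilator peptide Adm (2.36) and Hif3a (2.13). None of these 3 lists had a member called lower. Their shares called higher were 17.9, 25 and 24.1 percent in that order, against 2.3 percent of all genes.

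The unfolded protein and integrated stress response list had 5 of 35 higher and none lower. The amino acid transporter Slc7a5 went from 14.4 to 63.1 CPM (log2 fold change 2.16), and Trib3, Sesn2 and Ppp1r15a rose by 1.74, 1.35 and 1.30 log2. Of 30 heat shock chaperones the small ones Hspb8 (from 45.6 to 154 CPM, 1.76) and Hspb1 (1.03) rose (6.67 percent, against 2.3 percent of all genes), while the list's median was -0.12 log2. The heat shock element GAANNTTC was found in 43.5 percent of that list's 23 promoters, against 5.5 percent of all. In cholesterol synthesis, Pmvk (from 28.0 to 115 CPM, 2.05) was the 1 called member of 24 (4.17 percent, near the 3.6 percent of all genes called). Clock genes went both ways: the repressor Nfil3 (2.92), Per1 (1.33) and Bhlhe40 (1.20) rose, and Dbp (from 113 to 45.6 CPM, -1.31) and, outside the naming rule, Nr1d1 (-1.13) fell, out of 19 with a median of 0.01 log2 that turned negative in levels rebuilt per group and without an abundance minimum.

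Interferon-inducible genes were the list with the largest number of falls: 16 of 39 tested fell (41.0 percent, against 1.3 percent of all genes) and none rose, with a median of -0.99 log2. The immunity-related GTPase Iigp1 went from 51.1 to 8.48 CPM (log2 fold change -2.48 ± 0.48, adjusted p = 3.78e-05). The guanylate-binding protein genes Gbp4 (from 210.2 to 35.6 CPM, -2.46 ± 0.54), Gbp7 (from 106 to 24.7 CPM, -2.05 ± 0.39) and Gbp5 (-2.79 ± 0.61) fell, as did Oasl2, an antiviral gene of the oligoadenylate synthetase family (from 44.9 to 13.2 CPM, -1.68 ± 0.35). The Gbp genes are a family of related sequences, and how the authors' counting treated reads shared between members is not given in the sources used here. The signalling factor Stat2 (from 69.4 to 26.0 CPM, -1.34), chosen after its value was seen, fell too. The largest fall of all genes tested was in Gm12250, kept out of the naming rule as a predicted gene, from 42.6 to 3.22 CPM (-3.67 ± 0.72). The unventilated knockout level was the highest of the 4 groups for Gbp4, Gbp5, Gbp7, Iigp1, Oasl2, Stat2 and Gm12250.

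Antigen presentation genes fell in 4 of 22 cases (18.2 percent, against 1.3 percent of all genes) and none rose (median -0.39 log2). They were Ciita, the master regulator of class II genes (from 39.5 to 9.88 CPM, log2 fold change -1.90 ± 0.40), the immunoproteasome subunit Psmb8 (-1.29), the peptide transporter Tap1 (-1.21) and beta-2 microglobulin, B2m (from 1041 to 491 CPM, -1.13). T and NK cell markers fell in 5 of 29 cases (17.2 percent, against 1.3 percent of all genes) and none rose (median -0.64 log2). The cytotoxic granule genes Gzma (from 32.5 to 4.60 CPM, -2.74 ± 0.69) and Nkg7 (from 15.3 to 2.59 CPM, -2.46 ± 0.76), the co-receptor Cd8a (-1.70), the kinase Lck (-1.42) and, outside the naming rule, the T cell factor Gata3 (-1.45) fell. The pan-T gene Cd3e stood at 18.0 and 14.3 CPM and did not pass the test (log2 fold change -0.20 ± 0.52, chosen after its value was seen).

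Untested for low abundance, and likewise chosen after their values were seen, Tbx21, the transcription factor of type 1 lymphocytes, stood at 10.3 CPM in KO_noVILI and 1.08 CPM in KO_VILIlow, Gzmb at 8.23 and 1.23 CPM and Klrg1 at 6.14 and 0.591 CPM. The wild type levels of Tbx21 were 1.61 and 1.21 CPM, so KO_noVILI was the group set apart from the others. The summed level of the whole T and NK list was 586 CPM in KO_noVILI, 367 CPM in KO_VILIlow, 482 CPM in WT_noVILI and 481 CPM in WT_VILI. Its part in the falls of interferon-inducible genes was not tested. None of 27 B and plasma cell markers was called.

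**Figure D2:**
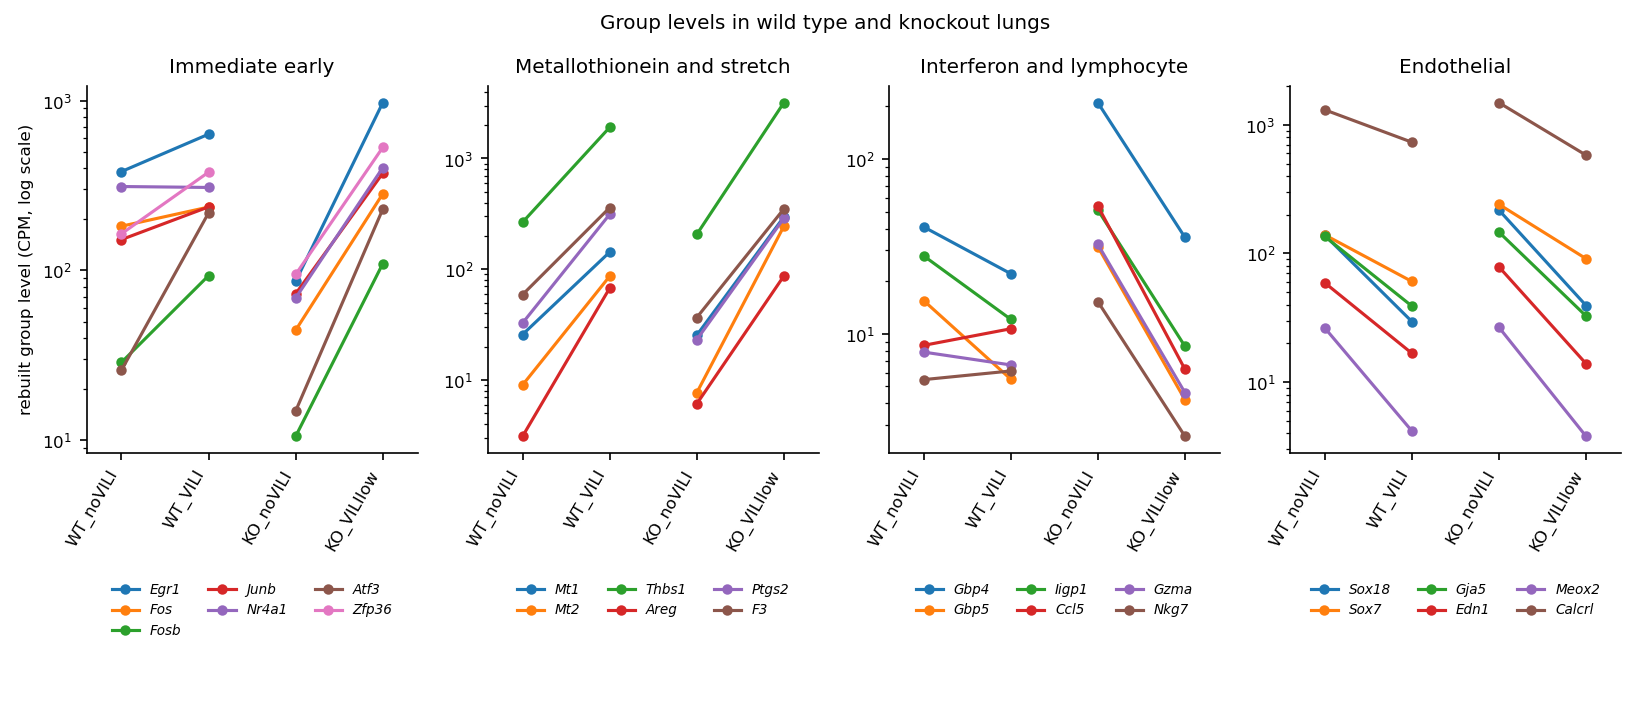
Rebuilt group levels in CPM (log scale) of chosen genes in WT_noVILI, WT_VILI, KO_noVILI and KO_VILIlow, with a line joining the unventilated and the ventilated group of each genotype and 1 point per group without a spread. Immediate early genes start lower in KO_noVILI than in WT_noVILI, interferon and lymphocyte genes start higher in it, the stretch genes rise and the endothelial genes fall in both genotypes, and Mt1 and Mt2 end higher in KO_VILIlow than in WT_VILI.

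Endothelial genes fell in 10 of 52 cases (19.2 percent, against 1.3 percent of all genes) and none rose (median -0.38 log2), while the junction gene Cdh5 stood at 1179 and 1172 CPM (log2 fold change -0.10 ± 0.28). The transcription factor Sox18 went from 217 to 39.4 CPM (-2.41 ± 0.37, adjusted p = 3e-08), and Meox2, a homeobox factor of quiescent vessels, from 26.7 to 3.79 CPM (-2.74 ± 0.55). The gap junction gene Gja5 went from 146 to 32.6 CPM (-2.13 ± 0.33), and Edn1, the vasoconstrictor endothelin, from 78.6 to 13.9 CPM (-2.40 ± 0.43). The other 6, chosen after their values were seen, were the Notch ligand Dll4 (-1.22), its target Hey1 (-1.57), the apelin receptor Aplnr (-1.44), the adrenomedullin receptor Calcrl (from 1485 to 580.5 CPM, -1.39), Sox7 (-1.40) and Gja4 (-1.25). Apold1, induced in stressed endothelium, went the other way, from 2.73 to 55.8 CPM (4.42 ± 0.51). None of 20 leukocyte and endothelial adhesion genes was called, and that list's median of -0.05 log2 turned positive in levels rebuilt per group.

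The epithelial counts are to be read against 3.6 percent of all genes called. At that share, lists of this size hold few called genes or none. Of 29 claudin and tight junction genes, Cldn4 aside, 2 rose and none fell: Cldn23 (from 4.42 to 17.7 CPM, log2 fold change 2.17 ± 0.50, adjusted p = 0.000905) and the polarity gene Pard6b (from 90.7 to 246 CPM, 1.38 ± 0.40). The claudins of the alveolar barrier, chosen after their values were seen, did not pass: Cldn18 stood at 862 and 1054 CPM (0.28 ± 0.34), Cldn3 at 144 and 199 CPM (0.42 ± 0.27) and Cldn7 at 44.5 and 75.6 CPM (0.78 ± 0.29). None of 23 alveolar type 1 genes and none of 22 alveolar type 2 genes was called, with Timp3 at 1714 and 3346 CPM (0.82 ± 0.28, adjusted p = 0.0818) and Sftpa1 at 3963 and 4198 CPM (0.09 ± 0.30). In the club and goblet cell list Bpifa1 and the detoxifying enzyme Aldh3a1 (from 6.35 to 19.4 CPM, 1.74) rose among 23.

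Of 37 ciliated cell genes only Foxj1, the factor that builds motile cilia, was called, from 79.1 to 20.7 CPM (log2 fold change -1.87 ± 0.34, adjusted p = 4.75e-06). In alveolar ion and water transport Sgk1 rose, and the beta-adrenergic receptors Adrb1 (from 78.6 to 24.6 CPM, -1.62 ± 0.31) and Adrb3 (from 17.3 to 2.48 CPM, -2.87 ± 0.81), of a receptor family known for stimulating alveolar fluid clearance, fell among 26. Lrat, which stores vitamin A as esters in lipid-laden fibroblasts, went from 226 to 38.3 CPM (-2.56 ± 0.33), and the transcription cofactor Lbh from 427 to 75.3 CPM (-2.51 ± 0.28). Rprml went from 13.4 to 1.83 CPM (-2.75 ± 0.58).

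Markers of tissue next to the lung moved with the groups as well. Cardiac muscle genes, which the heart and the muscular sleeves of pulmonary veins express, rose in 13 of 21 cases and none fell, with a median of 1.95 log2. The giant sarcomere protein Ttn went from 20.7 to 178 CPM (log2 fold change 3.11 ± 0.57, adjusted p = 7.87e-06), the calcium release channel Ryr2 from 15.5 to 56.9 CPM (1.95 ± 0.47), Actc1 from 48.6 to 156 CPM (1.68 ± 0.39) and Ckmt2 from 2.58 to 13.8 CPM (2.64 ± 0.60). Summed over the whole list the level was 517 CPM in KO_noVILI and 1794 CPM in KO_VILIlow, the lowest and the highest of the 4 groups, with 1156 CPM in WT_noVILI and 799 CPM in WT_VILI. Xirp1, a striated muscle protein and among the largest rises, went from 1.48 to 28.1 CPM (4.52 ± 0.70). Fat, thymus and mesothelium genes rose in 4 of 13 cases, all of them expressed in fat: Plin4 (2.27), Fabp4 (1.98), Car3 (1.90) and Cfd (1.76), the last also the 1 called member of 18 complement genes. The part of unequal amounts of such tissue in the other results was not tested.

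Skeletal muscle genes were nearly all under the abundance minimum, with Ckm (from 6.33 to 31.9 CPM, log2 fold change 2.47 ± 0.72) called of 2 tested. Smooth muscle rose in 2 of 19 cases (10.5 percent, against 2.3 percent of all genes), Acta2 (from 108 to 209 CPM, 0.92 ± 0.28) and Cnn1 (from 37.4 to 70.1 CPM, 0.95 ± 0.30). Red blood cell genes had none of 6 called, with a summed level of 6458 CPM in KO_noVILI and 3552 CPM in KO_VILIlow, and hemoglobin genes are near-identical copies whose single values are uncertain. Of 11 platelet genes only Thbs1, which many cells make, was called. None of 30 cell cycle genes, 43 ribosomal protein genes or 39 respiratory chain genes was called, with medians of -0.44, -0.15 and 0.05 log2.

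**Figure D3:**
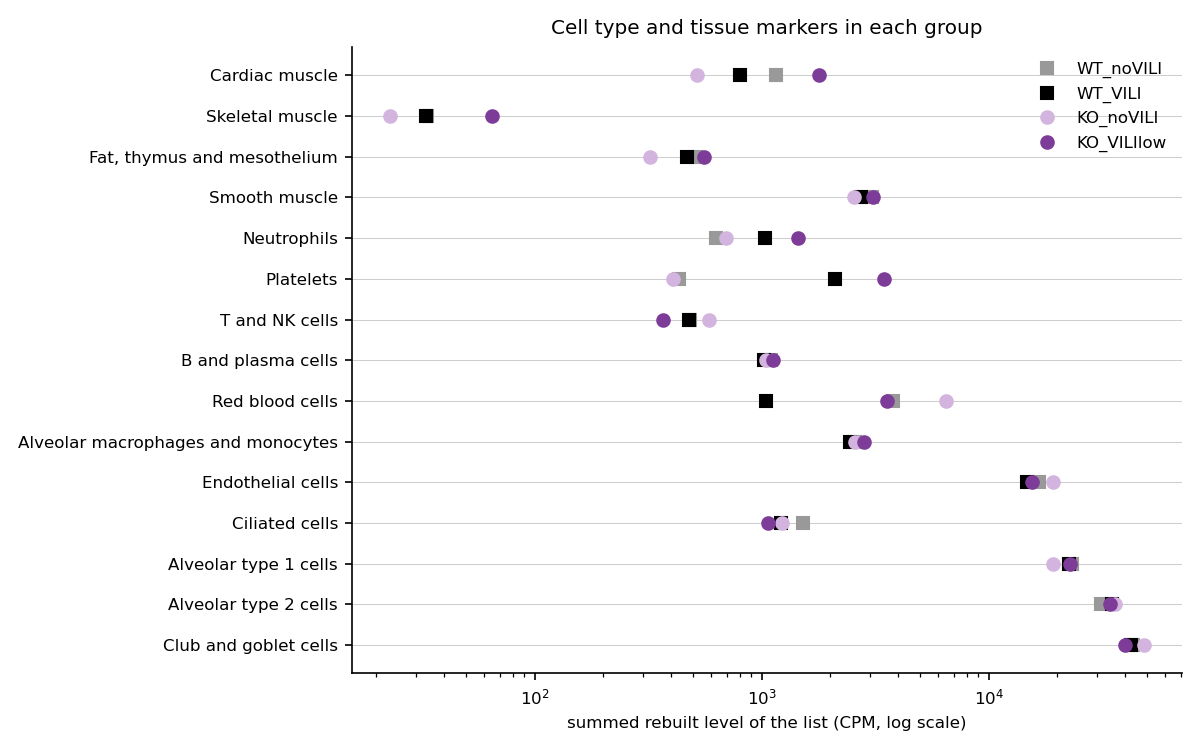
Summed rebuilt level in CPM (log scale) of every listed marker of a cell type or tissue, with squares for WT_noVILI and WT_VILI and circles for KO_noVILI and KO_VILIlow. Cardiac muscle spans 517 CPM in KO_noVILI to 1794 CPM in KO_VILIlow, while the alveolar type 1, alveolar type 2 and endothelial lists lie close together in all 4 groups.

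**Figure D4:**
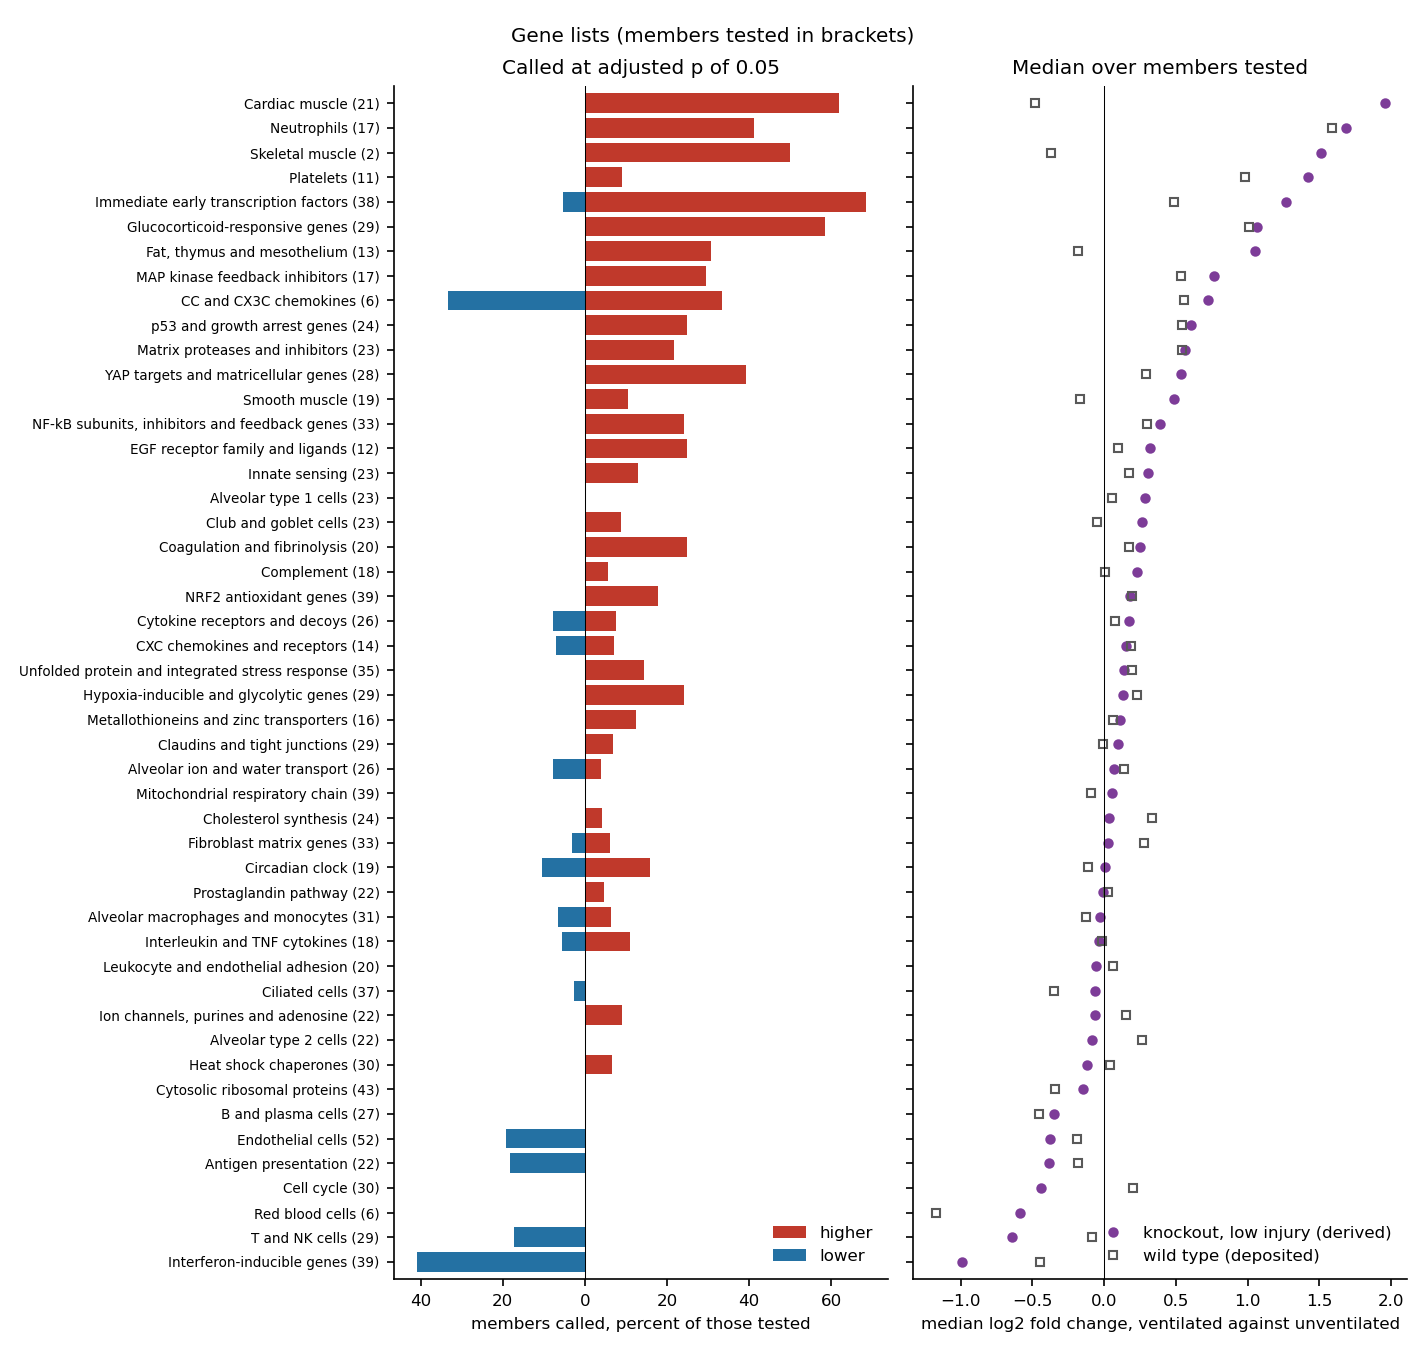
For each of the 48 gene lists, the left panel gives the percent of tested members called higher (red) or lower (blue) in KO_VILIlow against KO_noVILI, and the right panel the median log2 fold change over the members, filled circles for the knockout and open squares for the wild type response in the authors' deposited table. Immediate early, cardiac muscle and glucocorticoid-responsive lists have the largest shares higher, and interferon-inducible genes the largest share lower.

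Whether the knockout lungs responded to ventilation differently from wild type lungs was tested as the difference of the 2 responses, which involve 4 distinct groups. It was called for 149 genes (1.18 percent of those tested), higher in the knockout for 118 (0.938 percent) and lower for 31 (0.247 percent). The median difference over all genes was -0.02 log2 with a median standard error of 0.29. A difference of responses can come from the unventilated as well as from the ventilated level, so all 4 levels are given. The ventilated knockout is here KO_VILIlow, the less injured portion, so genotype and that selection cannot be told apart.

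Immediate early genes had 12 of 38 members with a higher response in the knockout and none with a lower one. Egr1 stood at 382 and 635 CPM in unventilated and ventilated wild type lungs and at 86.4 and 973 CPM in the knockout lungs (difference 2.68 ± 0.49 log2, adjusted p = 1.19e-05). Nr4a1 stood at 312, 308, 68.9 and 403 CPM in the same order (2.49 ± 0.47, adjusted p = 3.11e-05). Fosb stood at 28.7, 93.2, 10.5 and 109.6 CPM (1.70 ± 0.35). In all 3 the unventilated knockout was the lowest group and the ventilated knockout the highest, and the unventilated level lay further from wild type than the ventilated level did. For Nr4a1 and Fosb the authors' deposited test passed for the unventilated genotype difference (-2.16 and -1.44 log2). It did not pass for the ventilated one (0.33 and 0.25 log2). The other 9, named for being called, were Egr3, Fos, Junb, Nr4a2, Btg2, Sik1, Zfp36, Ier2 and Fosl2, with differences between 0.99 and 2.65 log2. Dusp1, a MAP kinase phosphatase, differed by 1.31 ± 0.27 and Socs3 by 1.31 ± 0.26.

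Both metallothioneins responded more in the knockout, by 1.76 ± 0.35 log2 for Mt2 (adjusted p = 0.000112) and 1.06 ± 0.29 for Mt1 (adjusted p = 0.0287). Mt1 stood at 25.7 and 143 CPM in wild type and 25.3 and 296 CPM in knockout lungs, so here the genotypes were further apart after ventilation than before. The same held for the cytokine Lif, at 8.02 and 20.5 CPM against 5.73 and 52.3 CPM (1.97 ± 0.39), for Socs3, at 40.7 and 119 CPM against 46.9 and 338 CPM, and for Nptx1, a secreted pentraxin, at 1.56 and 2.83 CPM against 3.05 and 46.0 CPM (3.36 ± 0.52). In Apold1 the ventilated levels were alike, at 55.5 and 55.8 CPM, and the unventilated ones 9.90 and 2.73 CPM (1.93 ± 0.45). Bpifa1 differed by 4.42 ± 1.17, with the floor level noted above. Of YAP targets, Cyr61 (1.84), Ankrd1 (2.02), Flnc (1.64), Myl9 (0.96) and Tagln (0.95) differed, and no other of the 28 members did. Ankrd1, Flnc, Myl9 and Tagln are also expressed in muscle, and the cardiac and smooth muscle lists had 18 of 21 and 6 of 19 members with a higher response, whose part in these values was not tested.

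Cardiac muscle genes made up many of the largest differences, with 18 of 21 members higher in the knockout. The wild type median of that list was -0.48 log2 in the authors' deposited table, against 1.95 for the knockout. Ttn stood at 100.5 and 71.9 CPM in wild type and at 20.7 and 178 CPM in knockout lungs (difference 3.60 ± 0.43, adjusted p = 7.82e-13). Mybpc3 (3.45), Mb (3.41), Xirp1 (3.19) and Mybphl (3.16), all genes of striated muscle, are also among the 8 largest differences upward. Smooth muscle had 6 of 19 higher, with Cnn1 at 1.58 ± 0.26 and Acta2 at 1.23 ± 0.24, and the fat, thymus and mesothelium list 5 of 13, the fifth besides those given being Adipoq (2.28).

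Among genes with a lower response in the knockout, Ccl5 stood at 8.58 and 10.7 CPM in wild type and at 53.8 and 6.27 CPM in knockout lungs (difference -3.31 ± 0.69, adjusted p = 0.000332). Gzma stood at 7.86, 6.63, 32.5 and 4.60 CPM (-2.49 ± 0.60), and Nkg7 at 5.47, 6.13, 15.3 and 2.59 CPM (-2.62 ± 0.66). In all 3 the unventilated knockout was the highest group and the ventilated knockout the lowest. In the authors' deposited test the unventilated genotype difference passed for Ccl5 and Gzma (2.71 and 2.12 log2) and not for Nkg7 (1.58, adjusted p = 0.0713). The ventilated one passed for none of them (-0.60, -0.37 and -1.04 log2 in that order). The third T and NK member was the receptor chain Il2rb (-1.41). Among the 39 interferon-inducible genes 1 was called, Gbp6, at 5.72, 5.48, 13.9 and 2.79 CPM (-2.16 ± 0.51). The list's median was -0.45 log2 for wild type in the authors' deposited table and -0.99 for the knockout. For Gbp4 the difference was -1.57 ± 0.50 (adjusted p = 0.119) and for Gbp5 -1.30 ± 0.55 (adjusted p = 0.575), so a larger fall in the knockout was not shown for them.

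The remaining lower responses among named genes were of other kinds. Alpl, alkaline phosphatase, stood at 4.68 and 19.5 CPM in wild type and 53.7 and 56.4 CPM in knockout lungs (difference -1.91 ± 0.34, adjusted p = 6.36e-06), high in the knockout with or without ventilation. The response was also lower for C1qtnf3 (-3.17 ± 0.87), the serpin Serpina3f (-2.21 ± 0.59), the phospholipase Plcb1 (-1.81 ± 0.29) and Lrat (-1.33 ± 0.29). Plcb1 rose in wild type, by 0.57 log2 in the authors' deposited table, and fell in the knockout, by 1.24 on the log2 scale. Of 30 cell cycle genes the proliferation genes Mki67 (-1.17), Top2a (-1.34) and Aurkb (-2.55) had a lower response, from unventilated knockout levels of 37.3, 19.5 and 4.40 CPM, the highest of the 4 groups in each.

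**Figure D5:**
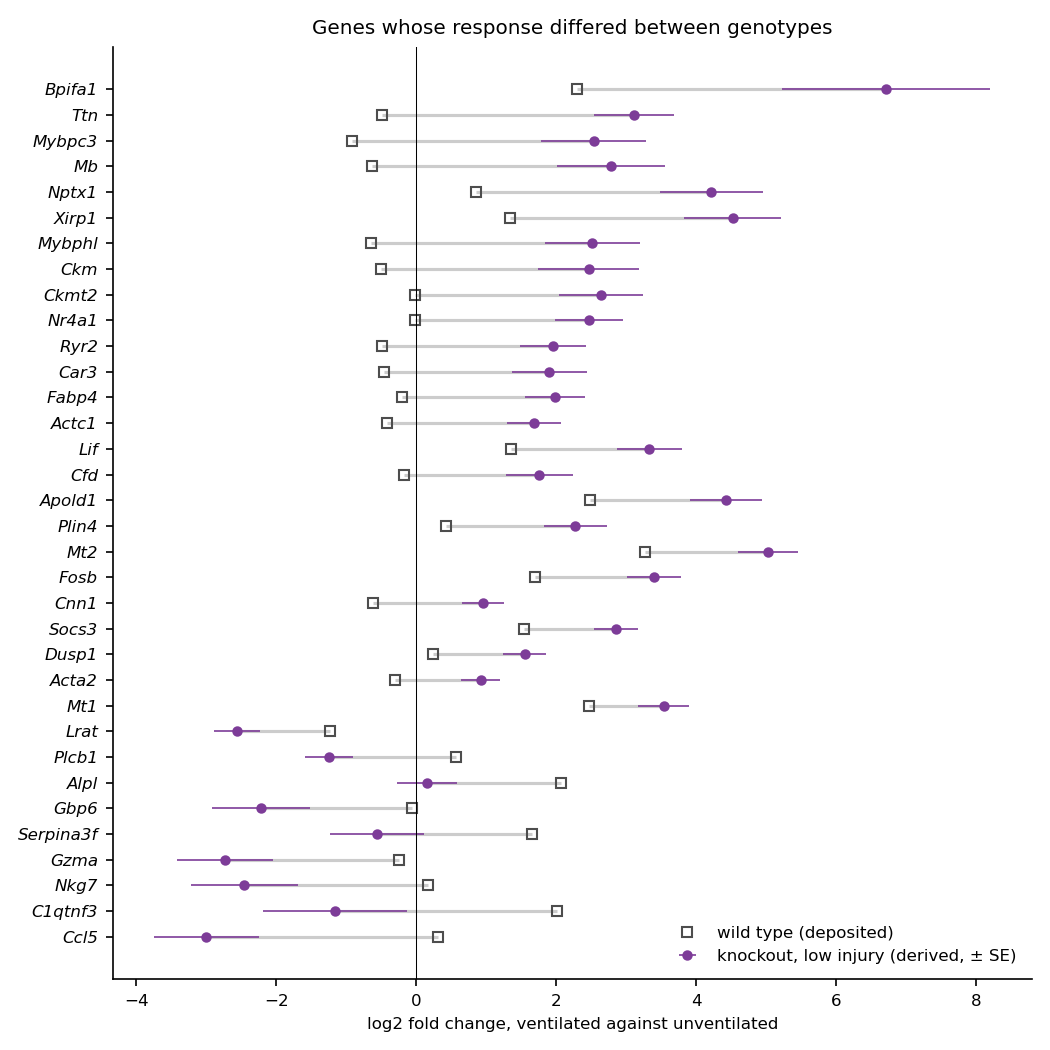
For genes named by the rule and reported here whose response differed between genotypes, Cldn4 left out, open squares give the wild type log2 fold change in the authors' deposited table and filled circles the derived knockout log2 fold change with a bar of 1 standard error each way. Bpifa1 and the striated muscle genes Ttn, Mybpc3 and Mb have the widest gaps upward, and Ccl5, C1qtnf3 and Nkg7 the widest downward.

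For several large responses the difference between genotypes did not pass the test. Areg rose by 4.44 log2 in wild type in the authors' deposited table and by 3.86 in the knockout (difference -0.58 ± 0.44). Ptgs2 rose by 3.26 in the authors' deposited table and by 3.58 in the knockout (0.32 ± 0.28), and Sox18 was at -2.23 in the authors' deposited table and -2.41 in the knockout (-0.18 ± 0.31). For neutrophil genes the list medians were 1.59 in the authors' deposited table and 1.69 in the knockout. For Thbs1 the difference of 1.04 ± 0.33 did not pass (adjusted p = 0.126). A difference that does not pass does not show that the responses were equal.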

How the data were processed

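Whole-lung RNA was sequenced, and the files hold 4 tables of group comparisons. Per the submitters' processing notes, the authors used Bowtie 1.1.2, mm9, R 3.0.1 and edgeR; the counting method, annotation and gene filter are not given in the sources used here. The deposited log2 fold changes and log2 mean CPM come from the authors' edgeR, per the file headers. The deposited p-value and FDR columns are those of the authors' edgeR test, per the file headers.

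The response was derived per Entrez ID, with pandas 2.3.3, scipy 1.17.1 and numpy 2.4.6 under Python 3.11.15, and figures with matplotlib 3.10.9. For each deposited fold change the standard error was the one that, under a normal distribution, gives its two-sided p-value. Where that p-value was 0.9 or more, the median over a window of 301 genes of similar abundance was used, which touched 24.5 percent of genes. Variances of the 3 tables were added, and p-values were adjusted over all 12575 genes by Benjamini-Hochberg. The wild type groups cancel in the response as far as their levels agree between the tables. For WT_VILI 79.5 percent of genes agreed within 0.1 log2. Their variance is counted, so where they cancel the test of the response is conservative. The test of the difference is not. At an unadjusted p of 0.05, 1311 genes passed. Of 12923 autosomal genes above the minimum, 348 had a fold change of exactly 0 and gave no standard error. The steps were tested on simulated data. P-values measure the spread between libraries as the authors' edgeR estimated it, which may be technical, and no depth per library was given.

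Named genes are Cldn4, the 10 largest rises and falls among called genes reaching 5 CPM in the higher knockout group (without predicted genes), at most 4 called members of each of 48 gene lists (the 2 most abundant where none was called), the 8 largest differences each way and sex-linked check genes; a few of these are not reported here. Members and lists were chosen with earlier results of these data known. Alternatives were another reference reading, other variances, minimums, adjustments, centring and rebuilt levels. Promoters are RefSeq's, and the first listed start was used for the 2032 genes with more than 1.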

Additional observations from a re-analysis of the deposited data

Results flagged for a closer look

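The ventilation response differed between the knockout and wild type lungs for 56 of the genes named, by the approximate test of the difference itself at an adjusted p of 0.05, and each is given as the knockout minus the wild type log2 fold change. Immediate early genes and their feedback inhibitors had differences of 2.68 (Egr1), 2.65 (Egr3), 2.49 (Nr4a1), 2.25 (Fos), 1.78 (Nr4a2), 1.70 (Fosb), 1.67 (Junb), 1.59 (Btg2), 1.41 (Sik1), 1.31 (Dusp1), 1.31 (Socs3), 1.19 (Zfp36), 1.03 (Ier2) and 0.99 (Fosl2). Genes of striated and smooth muscle had differences of 3.60 (Ttn), 3.45 (Mybpc3), 3.41 (Mb), 3.19 (Xirp1), 3.16 (Mybphl), 2.97 (Ckm), 2.66 (Ckmt2), 2.45 (Ryr2), 2.10 (Actc1), 1.58 (Cnn1), 1.23 (Acta2), 0.95 (Tagln) and 0.96 (Myl9). Genes expressed in fat had differences of 2.36 (Car3), 2.28 (Adipoq), 2.19 (Fabp4), 1.94 (Cfd) and 1.85 (Plin4). Stretch, stress and secreted genes had differences of 4.42 (Bpifa1), 3.36 (Nptx1), 2.02 (Ankrd1), 1.97 (Lif), 1.93 (Apold1), 1.84 (Cyr61), 1.76 (Mt2), 1.64 (Flnc) and 1.06 (Mt1). Of these, Ankrd1 and Flnc are also expressed in muscle. Lymphocyte and interferon genes had differences of -3.31 (Ccl5), -2.62 (Nkg7), -2.49 (Gzma), -2.37 (Gm12250), -2.16 (Gbp6) and -1.41 (Il2rb). Proliferation genes had differences of -2.55 (Aurkb), -1.34 (Top2a) and -1.17 (Mki67). Other genes with a lower response had differences of -3.17 (C1qtnf3), -2.21 (Serpina3f), -1.91 (Alpl), -1.81 (Plcb1) and -1.33 (Lrat). For the deleted gene Cldn4 the value was -6.63, which cannot be read as a size because both knockout levels lie at the floor of the estimates. Summed cardiac muscle markers moved with the same groups (1156, 799, 517 and 1794 CPM in WT_noVILI, WT_VILI, KO_noVILI and KO_VILIlow), and their part in the other differences was not tested.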

How the results depend on the processing

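The counts of 289 higher and 164 lower genes became 1055 and 1055 when the variances were multiplied by 1/3, an allowance for the wild type groups that cancel, 118 and 28 with Bonferroni adjustment, and 472 and 355 with a 2-fold change and no test. Read with WT_noVILI as the reference of the low-injury table, as the labels have it, the response becomes arithmetically the difference between the responses, with counts of 118 and 31. The Ddx3y and Xist values given with the checks do not bear that reading out. Every other alternative tried (levels rebuilt per group, other abundance minimums, exact zeros kept, local standard errors, centring, sex-linked genes kept) kept both counts within 1.5 times. Direction turned under that reading of the reference, in log2, for Adm (-0.073), Adrb3 (0.017), Alpl (-1.91), Areg (-0.58), Atp5a1 (0.18), Atp5b (0.13), Ccr2 (0.23), Cdkn1a (-0.12), Cxcl1 (-0.71), Dbp (0.36), Dusp16 (-0.036), Dusp8 (-0.43), Eln (-0.059), Hba-a2 (1.36), Hbb-bs (0.90), Nfil3 (-0.40), Pmvk (-0.26), Rpl4 (0.37), Rpl8 (0.16), Sdc1 (-0.012), Sesn2 (-0.32), Sftpa1 (-0.18), Slc7a5 (-0.12), Tnfrsf12a (-0.084), Trem1 (-0.11), Id1 (0.083) and Klf2 (0.72). Among genes near 0, direction turned with levels rebuilt per group for Ahnak (-0.092), Atp5a1 (0.035), Atp5b (0.055) and Itgb1 (0.038), and with centring for Atp5b (0.0064). The difference between the responses, 118 higher and 31 lower genes, gave 77 and 15 with an abundance minimum of 3, which tests fewer genes, 63 and 4 with Bonferroni adjustment, and 50 lower genes with local standard errors. No paired analysis was possible because the tables hold no values per library, and leaving out a library could not be run for the same reason. With no counts per library, the depth behind any value is unknown. The cause of the other changes was not tested.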
